A study of Mus musculus with 14 samples.

Results

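A set of 53 Wnt pathway genes was examined for binding by MyoD and MyoG, DNA-binding factors of the myogenic regulatory family. The genes were chosen by name, from ligand to nuclear factor, and every listed peak that carried one of these names was taken. A member without a peak counted as not bound. Of the 53 members, 13 were named by at least 1 peak in any of the 12 peak lists and 40 by none. The same share over all protein-coding genes is not given here, so these counts are not read as particular to the members. A member's name was carried by 25 of the 10303 listed peaks.

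Chromatin came from wild-type mice carrying a floxed mito-Dendra2 allele and the Pax7-Cre(ERT2) driver, which labels muscle stem cells (MuSCs) and their progeny with a fluorescent mitochondrial protein once tamoxifen (75 mg/kg, once daily for 5 days) is given. The tibialis anterior, a shin muscle, was injured 2 days after the last dose with 50 µL of 1.2% BaCl2, and its counterpart in the other leg was given saline. Cells were sorted 2 days later, as quiescent stem cells (QSCs; CD34+, Dendra2+, DAPI-) from the saline side and activated stem cells (ASCs; CD34-, Dendra2+, DAPI-) from the injured side. MyoD and MyoG were each profiled in both states by ChIP sequencing, with 3 libraries in each of the 4 groups, and neither the age of the mice nor their number per library is given in the labels. The driver marks cells by Pax7 history, so the ASC gate holds whichever labelled descendants had lost CD34. Peak lists hold no expression values, so the cell type could not be checked by markers.

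Wnt ligands are secreted proteins that bind Frizzled receptors together with the co-receptors Lrp5 and Lrp6. The signal passes through Dvl proteins to a destruction complex built on Axin and Apc, which otherwise marks β-catenin for breakdown, and stabilized β-catenin joins TCF and LEF factors on DNA. Other branches run through Ror, Ryk and Vangl2. In muscle, Wnt signals are known to act on stem cell expansion and on the commitment of activated cells to differentiate.

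MyoD and MyoG recognize E-boxes, short DNA words of the form CANNTG, of which MyoD favors CAGCTG. No genome was used here, so the bases under the peaks are not shown, and the promoters are shown for a narrower reason. Wnt9a and Fzd10 are the members with MyoD peaks in at least 2 ASC libraries whose promoter windows (250 bases before to 50 bases after the start site, RefSeq, GRCm38.p6) held CAGCTG, yet no list placed a peak in either window. E-box letters are in capitals.
Wnt9a, chr11:59306680-59306979, plus strand: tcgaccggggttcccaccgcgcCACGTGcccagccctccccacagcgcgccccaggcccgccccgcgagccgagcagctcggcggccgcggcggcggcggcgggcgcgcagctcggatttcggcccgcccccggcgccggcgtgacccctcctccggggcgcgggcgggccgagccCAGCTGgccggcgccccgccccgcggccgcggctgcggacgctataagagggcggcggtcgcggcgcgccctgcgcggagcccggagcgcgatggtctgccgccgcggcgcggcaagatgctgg
Fzd10, chr5:128600856-128601155, plus strand: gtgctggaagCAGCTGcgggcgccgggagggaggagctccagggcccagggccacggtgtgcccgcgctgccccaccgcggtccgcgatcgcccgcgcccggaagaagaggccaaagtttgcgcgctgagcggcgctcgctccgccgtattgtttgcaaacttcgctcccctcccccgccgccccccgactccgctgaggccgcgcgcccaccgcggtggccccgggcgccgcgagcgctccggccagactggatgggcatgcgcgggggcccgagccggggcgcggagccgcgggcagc

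The 5 MyoD-bound members with a promoter sequence had 6 windows. CANNTG was present in 2 of these 6 windows, against 72.3% of 32851 RefSeq windows, and CAGCTG in the same number, against 16.3%. CAGGTG, or CACCTG on the other strand, was in 0 of the 6 windows and in 20.2% of all windows. Both strands were searched, and CANNTG includes the other motifs. Over all 37 members with a promoter sequence (46 windows), 0 windows overlapped a peak of any list, against 1.23% of all 32851 windows, a share at which few or none would be met among 46.

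The lists differed in length. ASC MyoD libraries held 2262 to 2652 peaks, ASC MyoG libraries 605 to 916, QSC MyoD libraries 139 to 174 and QSC MyoG libraries 120 to 167. A peak's score is 10 times the negative log10 of its p-value, with a lowest value of 50.0 over all lists. Lists carry no read counts, so the depth is unknown. Fewer peaks in a list may reflect fewer reads or less binding, and these cannot be told apart here.

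The first question was which Wnt genes MyoD occupies in activated cells. A gene was called bound in a group when a peak with its name was in at least 2 of its 3 libraries. MyoD was bound at 6 of the 53 members in ASCs: Wnt9a, Fzd7, Fzd10, Lrp5, Ror1 and Tcf7l2. This is 11.3% (95% Wilson interval 5.29% to 22.6%, covering counting error over genes only), and 6.34% of the 21900 protein-coding genes in RefSeq were called by the same rule. The background lies inside that interval, so 53 genes are too few to set the share apart from that of genes at large. MyoG in ASCs, MyoD in QSCs and MyoG in QSCs were each bound at 0 of 53, where 0.489%, 0.0731% and 0.0502% of all genes were called.

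**Figure D1:**
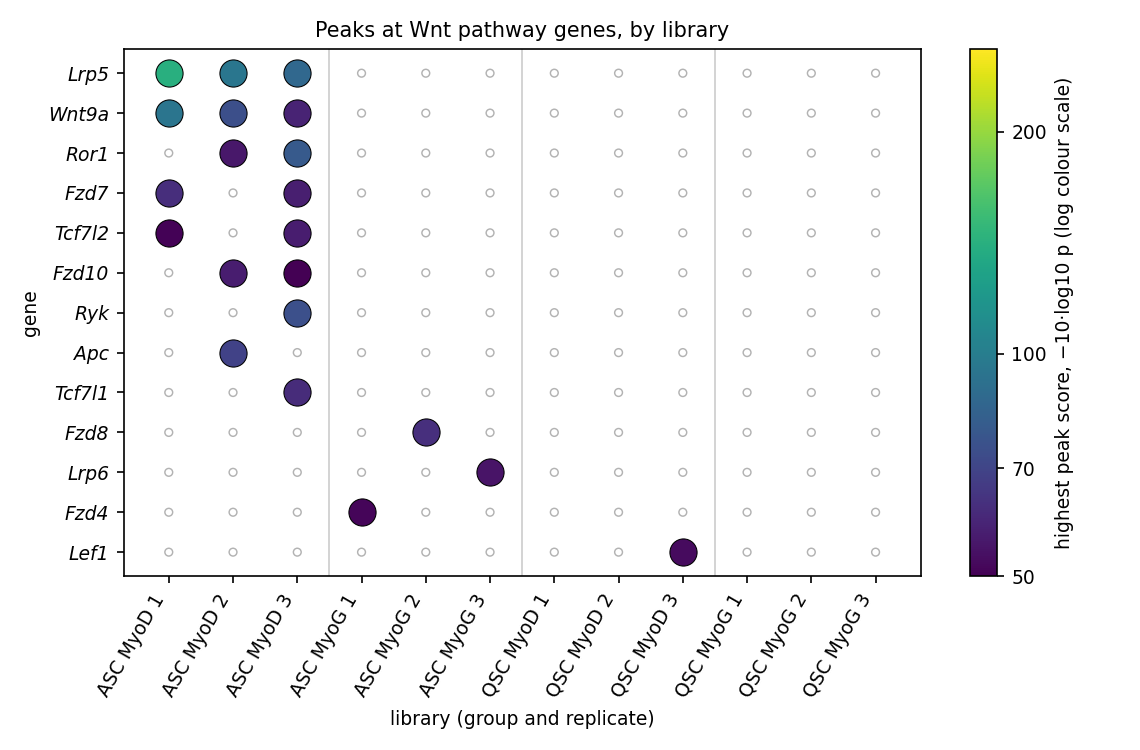
Each row is a member with at least 1 peak and each column a library; a filled circle is colored by the score of the member's highest peak (10 times the negative log10 of p, log color scale) and a small open circle marks no listed peak. Filled circles crowd into the 3 ASC MyoD columns, where only Lrp5 and Wnt9a have one in every replicate.

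Peaks at members were most numerous with MyoD in ASCs. ASC MyoD replicates 1, 2 and 3 named 4, 5 and 8 members (mean 5.67 ± 2.08, SD, n = 3), while QSC MyoD replicates named 0, 0 and 1. The groups did not overlap. Relative to the length of each list the separation was gone: member peaks were 0.189%, 0.265% and 0.436% of the ASC MyoD lists and 0%, 0% and 0.575% of the QSC MyoD lists. For comparison, the members are 0.242% of protein-coding genes. With MyoG, each ASC library named 1 member, a different one each time, and no QSC library named any. At least 1 library named 9 members for MyoD in ASCs (17.0%, against 10.7% of all genes), 3 for MyoG in ASCs (against 3.36%) and 1 for MyoD in QSCs (against 1.03%). In these MyoG lists member peaks were 0.109% to 0.165% of ASC peaks.

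All 6 MyoD-bound members met the rule for ASC specificity, with peaks in at least 2 of 3 ASC libraries and in no QSC MyoD library, as did 6.15% of all protein-coding genes. They also had no MyoG peak in ASCs, a pattern met by 5.66% of all genes. The reverse patterns were met by 0 members: bound by MyoD in QSCs only (0.0502% of all genes), by MyoG in ASCs only (0.420%) or in QSCs only (0.0137%), and in ASCs by MyoG without MyoD (0.315%). Per gene, libraries with and without a peak were compared by a two-sided Fisher's exact test. Lrp5 and Wnt9a, at 3 libraries against 0, gave an exact p-value of 0.1, the smallest that 3 against 3 allows (Benjamini-Hochberg adjusted 0.302 over 2502 genes for ASC against QSC, and 0.374 over 2864 genes for MyoD against MyoG). The other 4, at 2 libraries against 0, gave an exact p-value of 0.4 in both comparisons (adjusted 0.721 and 0.812). With this test of peak presence in 3 lists against 3, no gene could pass a threshold of 0.05.

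Among the 12 Wnt ligands, only Wnt9a was named by a peak, where 10.7% of all genes were named in at least 1 ASC MyoD library. Wnt9a (ENSMUSG00000000126) encodes a secreted ligand and spans chromosome 11, 59306849 to 59333552. It was the member with the most replicated binding: 2 separate regions in intron 1 each had a peak in all 3 ASC MyoD libraries.

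The region nearer the start site (chr11:59311997-59313770, 5067 bp from it) had scores of 78.9, 74.0 and 58.6 in replicates 1, 2 and 3 (mean 70.5 ± 10.6, SD, n = 3). The second (chr11:59322633-59323662, 15703 bp from the start site) had scores of 94.6, 70.9 and 57.6 (mean 74.4 ± 18.7). At both, replicate 3 was lowest and replicate 1 highest, and only the second region's replicate 1 exceeded a score of 80. The first region also overlaps Gm51865, a RefSeq noncoding RNA. Wnt3a, which neighbors Wnt9a on the chromosome, and the other 10 ligands (Wnt1, Wnt2, Wnt3, Wnt4, Wnt5a, Wnt5b, Wnt7a, Wnt7b, Wnt10b and Wnt11) were not bound in any library.

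Of the 10 Frizzled receptors, 2 were bound by MyoD in ASCs, where 6.34% of all genes were, and 10 genes are too few to compare shares. Fzd7 (ENSMUSG00000041075), known as a receptor for Wnt7a on muscle stem cells, had a distal intergenic region (chr1:59433719-59434544) that lay 47603 bp before its start site. Its peak was listed in replicates 1 and 3, with scores of 61.9 and 57.3, and not in replicate 2.

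Fzd10 (ENSMUSG00000081683) had a distal region (chr5:128646464-128647138) that began 42371 bp past the end of the gene and overlapped the noncoding RNA Gm33931. It was listed in replicates 2 and 3, with scores of 57.0 and 50.1. The latter is at the floor of the list, as 0.261% of that library's peaks scored at or below it. Fzd4 and Fzd8 were each named once, by MyoG in ASCs: Fzd4 in replicate 1 (chr7:89447238-89447727, score 51.0, 37128 bp from the gene) and Fzd8 in replicate 2 (chr18:9001485-9002228, score 62.6, 210628 bp from the gene). Fzd1, Fzd2, Fzd3, Fzd5, Fzd6 and Fzd9 were not bound in any library.

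The co-receptor Lrp5 (ENSMUSG00000024913) had the highest scores of all members. Its region in intron 1 (chr19:3680934-3681880) lay inside the gene (3584825 to 3686585), 4705 bp from the nearer end of the gene. Scores were 140.9, 95.3 and 86.4 in ASC MyoD replicates 1, 2 and 3 (mean 107.5 ± 29.3, SD, n = 3), and 86.2%, 71.9% and 68.2% of the peaks in those lists scored at or below it. Lrp5 was the only member to stay bound at a score of at least 80, where 2.88% of all genes were called. Lrp6, its close relative, had 1 peak, with MyoG in ASC replicate 3 (chr6:134467651-134468389, score 54.7). The authors annotated this peak as a promoter site at 2 to 3 kb, and it lies within the gene.

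Ror1 (ENSMUSG00000035305), a receptor tyrosine kinase that binds Wnt ligands, was called bound without any replicated site. Its 3 regions were each found in a single ASC MyoD library: intron 4 in replicate 2 (chr4:100401554-100402240, score 55.4), intron 8 in replicate 3 (chr4:100426452-100427538, score 79.1), and a distal site 7457 bp before the start, also in replicate 3 (chr4:100087765-100088334, score 53.5). The gene spans 349016 bp. With the same region required in 2 libraries, Ror1 was lost and 5 members stayed bound, against 5.93% of all genes. Ryk, another Wnt receptor, had an intron 2 peak in ASC MyoD replicate 3 (chr9:102863884-102864681, score 74.5). Ror2 and the planar polarity protein Vangl2 were not bound.

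In the cytoplasmic machinery, 7 of 8 members had no peak: Ctnnb1, which encodes β-catenin, Axin1, Axin2, Gsk3b, Dvl1, Dvl2 and Dvl3. At 10.7% of all genes with a peak in at least 1 ASC MyoD library, few or none would be met among 8. Apc, the scaffold of the destruction complex, had 1 intronic peak in ASC MyoD replicate 2 (chr18:34286182-34287029, score 69.1).

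Among the 5 nuclear factors, Tcf7l2 (ENSMUSG00000024985), which pairs with β-catenin on DNA, was bound by MyoD in ASCs. Its distal region (chr19:55951182-55952047) began 17523 bp past the end of the gene, and scores were 50.5 and 57.0 in replicates 1 and 3. Tcf7l1 had a distal peak in ASC MyoD replicate 3 (chr6:72809899-72810565, score 61.4, 20854 bp before the start site). Lef1 gave the single member peak of the QSC lists, in its last intron (intron 11 of 11) in QSC MyoD replicate 3 (chr3:131219037-131219794, score 52.4). Tcf7 and the β-catenin cofactor Bcl9 were not bound.

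No peak carried the name of any of the 7 secreted Dkk and Sfrp proteins (Dkk1, Dkk2, Dkk3, Sfrp1, Sfrp2, Sfrp4 and Sfrp5). The same held for the 5 genes for R-spondins and their receptors (Rspo1, Rspo2, Rspo3, Lgr4 and Lgr5), which amplify the signal at the cell surface. Of all genes, 10.7% had a peak in at least 1 ASC MyoD library, so few or none would be met in classes this small. One ASC MyoD peak inside the span of Lgr5 was listed under another gene's name.

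Member peaks ranged from the floor of the lists to their upper part. The 21 ASC MyoD member peaks had median scores of 78.9, 70.0 and 58.1 in replicates 1, 2 and 3, where the whole lists had medians of 75.1, 72.1 and 68.9. Of these 21 peaks, 9 scored under 60 and 4 reached 80. Replicate 3 held 10 of the 21, though it was not the longest list. Among ASC MyoD regions found in at least 2 libraries, the 6 member regions had a median mean score of 65.0 (range 53.6 to 107.5), and all 1985 regions had 82.3.

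**Figure D2:**
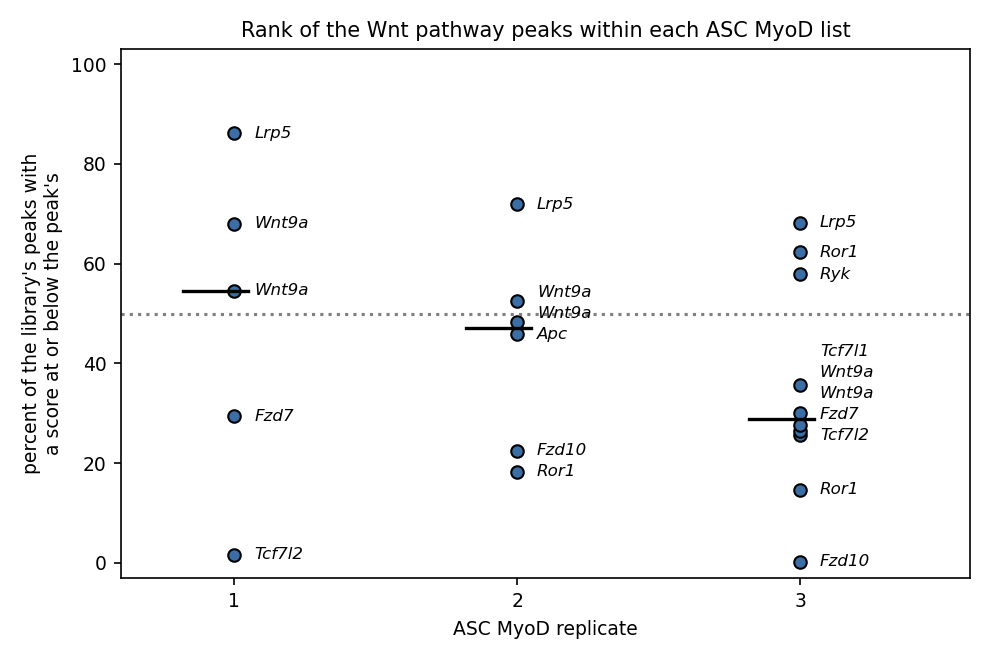
Each circle is an ASC MyoD member peak, placed by the percent of its library's peaks that score at or below it; black bars are medians per replicate, the dotted line is the middle of the list, and names are moved up where they would collide. Medians are 54.5%, 47.1% and 28.9% in replicates 1, 2 and 3, and Lrp5 is the highest circle in each.

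In ASCs, the regions of MyoD at members were intronic or distal. Of the 12 ASC MyoD regions, 7 were in introns and 5 distal intergenic, and 0 were promoter sites (95% Wilson interval 0% to 24.2%), whereas promoters made up 22.3% of all 4101 ASC MyoD regions. The promoter share of all regions lies inside that interval. Over all groups, 9 of 16 member regions lay inside the RefSeq span of their gene, and in all 16 the member was the nearest protein-coding gene. Regions were collected by the gene name given to their peaks, so this does not test the assignment. None of the 16 regions was overlapped by a peak from a library of another group. The same share over all regions was not computed, so this is not read as particular to the members.

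**Figure D3:**
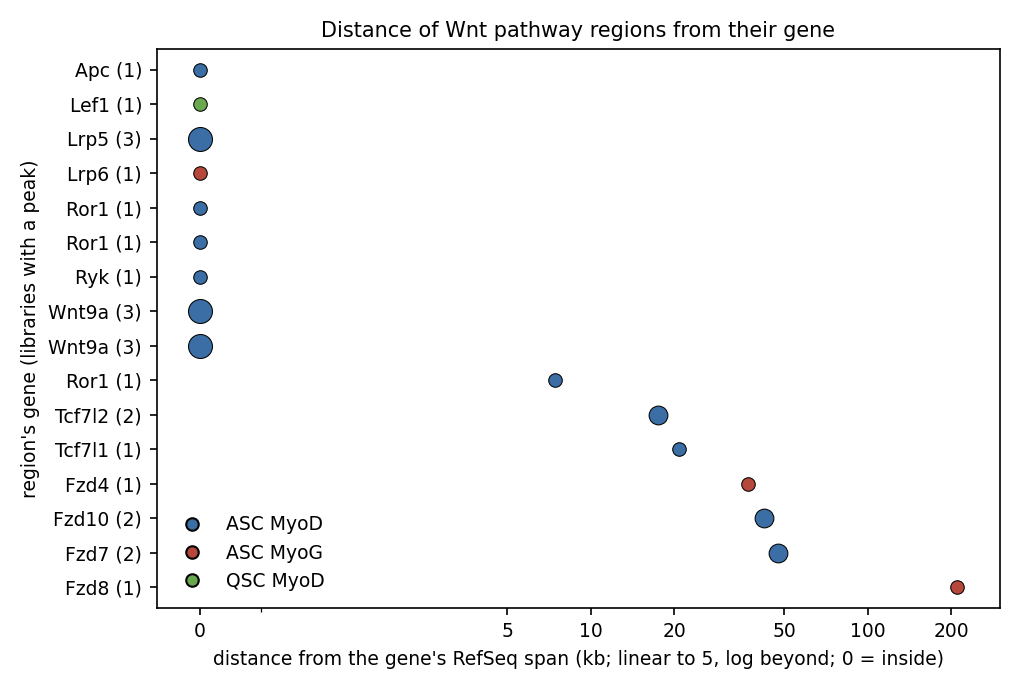
Each circle is 1 of the 16 member regions, colored by group and sized by the number of libraries with a peak (in parentheses), at its distance in kb from the RefSeq span of the gene (linear to 5 kb, log beyond; 0 is inside). The 9 regions inside a gene include all 3 regions found in 3 libraries, and Fzd8 is farthest out.

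Longer genes were called more often, and the members are long. Among all protein-coding genes, MyoD was bound in ASCs at 1.52% of the lowest quartile by gene span and at 15.2% of the highest. The median span was 36857 bp for members and 17146 bp for all genes, and 9, 8, 14 and 22 members fell in the quartiles from lowest to highest. Of these, 2, 0, 1 and 3 were bound, where 1.52%, 3.33%, 5.30% and 15.2% of all genes were. The part of gene span in the members' share was not tested.

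The call also depended on how much evidence was asked for. With a peak in all 3 libraries, 2 members remained bound (3.77%), Lrp5 and Wnt9a, against 3.90% of all genes. Without distal intergenic peaks, 3 remained (5.66%), Lrp5, Ror1 and Wnt9a, against 4.55%. Within 10000 bp of the start site (of the nearer gene end for Lrp5), Lrp5 and Wnt9a remained, against 2.06%, and with promoter peaks only, 0 members remained, against 1.64%. Without ASC MyoD replicate 3, when both other libraries had to hold a peak, 2 remained, again Lrp5 and Wnt9a, against 4.79% of all genes. Without replicate 1 or without replicate 2, 4 members remained (7.55%), against 4.45% and 4.89%.

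**Figure D4:**
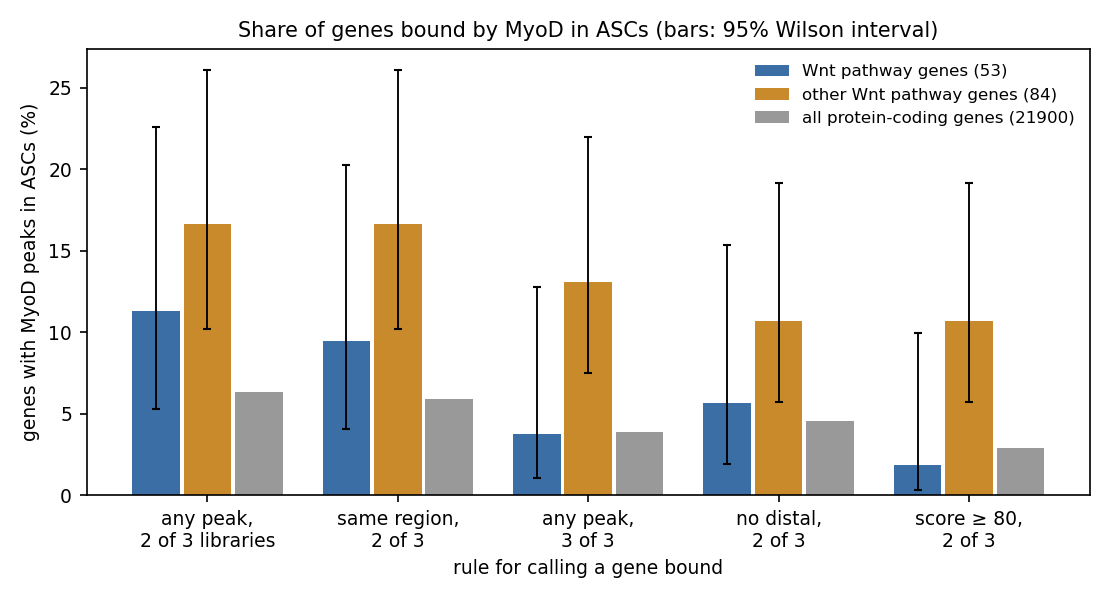
Bars give the percent of genes bound by MyoD in ASCs under 5 rules, for the 53 Wnt pathway genes, 84 other Wnt pathway genes and 21900 protein-coding genes; error bars are 95% Wilson intervals over genes. The background of 6.34% under the first rule falls to 2.88% at a score of at least 80, where the members are at 1.89% and the other Wnt genes at 10.7%.

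A further list of 84 Wnt pathway genes showed where MyoD peaks lay beyond the members. It was written by role, but with earlier results of these data known, so its share bound is a description and not a test. It holds Tcf3, a symbol that now names an E-protein gene outside the pathway, which had no peak in any library and is counted in the 84. Of these 84, 28 had a peak in any list, a count for which no matching share of all genes is given here. MyoD was bound in ASCs at 14 of the 84 (16.7%, against 6.34% of all genes). The 95% Wilson interval was 10.2% to 26.1%, covering counting error over genes only. In all 3 libraries, 11 of the 14 had a peak (13.1% of the 84, against 3.90% of all genes). None of the 14 had a QSC MyoD or ASC MyoG peak, a pattern common to bound genes at large. Of 1388 protein-coding genes bound by MyoD in ASCs, 1346 had no QSC MyoD peak and 1239 had no ASC MyoG peak. The median span of these 84 genes was 32832 bp, and the part of span was not tested here either.

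Of the nuclear cofactor genes on this list, Ctbp2 and Tle3 had peaks in all 3 ASC MyoD libraries, and Ctnnbip1 in replicate 3 only (score 51.9). Ctbp1, Tle1, Tle2, Tle4, Bcl9l, Pygo1 and Pygo2 had none with MyoD in ASCs. A region assigned to the corepressor gene Ctbp2 (chr7:132992594-132993716) had scores of 205.0, 132.2 and 189.8 (mean 175.7 ± 38.4, SD, n = 3), but its intron annotation carries another gene's identifier (ENSMUSG00000030849), so the assignment is uncertain. Tle3, a corepressor that partners TCF factors, had a distal region (chr9:61438804-61439899) with scores of 115.7, 258.6 and 61.9, replicate 2 standing above the other two.

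Among target genes of the pathway on this list, Ccnd1 and Ccn4 had promoter sites with MyoD in ASCs. Myc, Sp5 and Apcdd1 had no peak in any library, and neither did the member Axin2. Ccnd1, which encodes cyclin D1, had a region at 2 to 3 kb (chr7:144934553-144935680) with scores of 180.8, 103.6 and 111.5 (mean 132.0 ± 42.4). Ccn4, a secreted target once called Wisp1, had a region within 1 kb of its start (chr15:66891880-66892731) with scores of 196.4, 100.2 and 79.8 (mean 125.5 ± 62.3). Replicate 1 was highest at both.

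The kinase genes Csnk1a1, Camk2b and Camk2g had peaks in all 3 ASC MyoD libraries, with mean highest scores of 108.6 ± 17.9, 106.2 ± 22.9 and 90.7 ± 31.6. So did Kremen1, a Dkk receptor (94.0 ± 13.1), and Tspan12, a Frizzled partner (69.4 ± 25.2). Of the other kinase genes on this list, Camk2a is named below and Camk2d had an ASC MyoD peak in replicate 3 only (score 52.55). Gsk3a, Csnk1d, Csnk1e, Csnk1g1 and Nlk had no peak in any library. Fbxw11 and Nkd1 were named in all 3 libraries, but by different regions. Fbxw11, a subunit of the ligase that marks β-catenin, had a peak in intron 3 in replicate 1 (score 94.7) and in intron 8 in replicates 2 and 3 (78.3 and 67.0). Nkd1, an antagonist of Dvl, had one in intron 4 in replicates 1 and 2 (98.8 and 63.5) and in intron 3 in replicate 3 (56.2). Wls, the carrier that brings Wnt ligands to the cell surface, had intron 2 peaks in replicates 1 and 2, with scores of 118.9 and 83.2. Named after their values were seen, Amer2 and Camk2a complete the 14. Btrc was the 1 gene on this list with MyoG peaks in 2 ASC libraries (1.19%, against 0.489% of all genes). Its peaks were at different sites near the floor of the lists, a promoter site at 1 to 2 kb in replicate 1 (score 51.5) and intron 2 in replicate 3 (50.7).

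**Figure D5:**
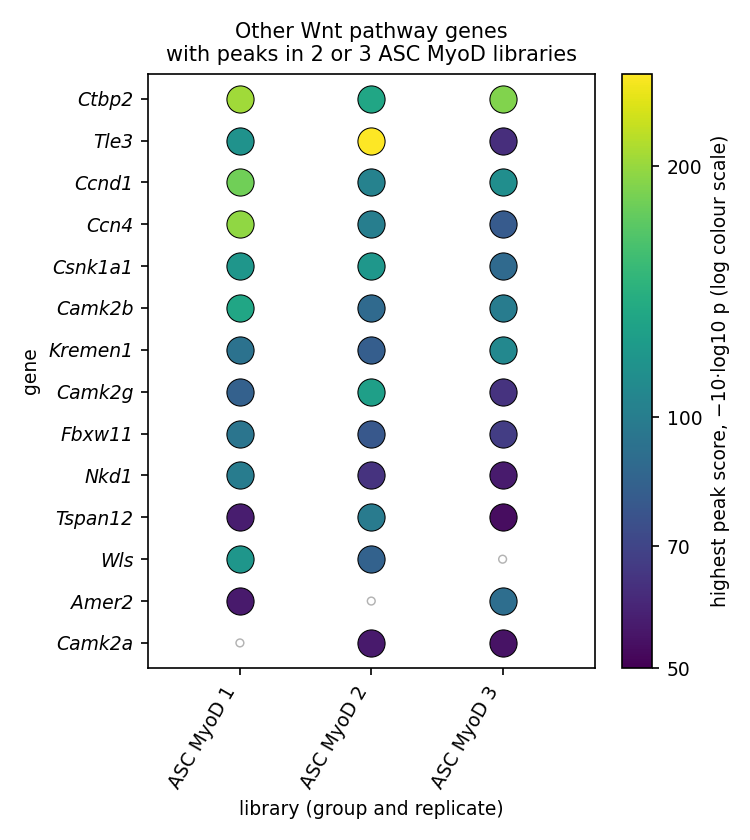
Rows are the 14 other Wnt pathway genes bound by MyoD in ASCs and columns the 3 ASC MyoD libraries, colored by the highest peak score (10 times the negative log10 of p, log color scale; open circle, no peak). Ctbp2, Ccnd1 and Ccn4 are highest in replicate 1, and Tle3 in replicate 2.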

How the data were processed

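MyoD and MyoG ChIP peaks from 12 libraries were analyzed, with 3 replicates in each of 4 groups taken from the sample titles. The 2 input libraries were not analyzed here. The authors called peaks in each library separately and deposited a score (10 times the negative log10 of the p-value), a gene and an annotation per peak. Positions (unit: other, in bp) are as deposited. The submitters' processing notes name BWA 0.7.5, MACS, deepTools 3.5.0 and mm10. The use of input and any peak filter are not given in the sources used here.

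Peaks were matched to genes by symbol, and all 53 members matched RefSeq (GRCm38.p6, the same build as mm10). Of 4384 gene names in the lists, 280 did not match. Peaks of a gene overlapping by at least 1 bp within a group were joined into regions. The background was all 21900 protein-coding symbols. Scores depend on library depth, so mean scores describe the calls. The steps were tested on simulated lists. Tools were Python 3.11.15, pandas 2.3.3, SciPy 1.17.1, statsmodels 0.14.6 and matplotlib 3.10.9.

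The members and lists were chosen with earlier results of these data known. All members with a peak are named, and of the further list the 12 bound genes with the most libraries and then the highest mean score. The p-values compare numbers of libraries with and without a peak and use no scores. Where the sources do not say that libraries came from separate mice, the p-values speak for the libraries only. Fisher's exact tests were two-sided. The alternatives were a score of at least 80 (a p-value of 1e-08), other numbers of libraries, other peaks counted per gene, other joining rules, pairing by replicate number and leaving out each replicate. No columns of other samples were used.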

Additional observations from a re-analysis of the deposited data

How the results depend on the processing

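For MyoD in ASCs, the count of bound members (6) and of ASC-specific members (6) was 1 at a score of at least 80, 2 with a peak in all 3 libraries and 3 without distal intergenic peaks. Bound members were 2 within 10000 bp of the start site (of the nearer gene end where no start site was held) and 0 with promoter peaks only. These rules keep fewer peaks or ask for more libraries by construction. Leaving out a replicate gave 2 to 4 for both counts, with the lowest without replicate 3. With a peak in 1 library enough, the counts were 9 for MyoD in ASCs, 3 for MyoG in ASCs (bound and specific) and 1 for MyoD in QSCs. Member regions in at least 2 libraries (6) were 1 at a score of at least 80, 3 in all 3 libraries and 3 to 5 when a replicate was left out, and stayed at 6 under both other joining rules. Paired by replicate number (the replicate block), 6 members were specific to ASCs for MyoD and 0 for MyoG, and 6 were bound by MyoD and not MyoG. Shares of all genes under the paired rule, or specific to ASCs under the other rules, are not given here. These counts are therefore not read as particular to the members. That same-numbered libraries share animals is not given, and members were too few to check it. Among the 4384 genes with a peak in any list, 39.4% were bound by MyoD in ASCs, in place of 6.34% of protein-coding genes, and 6 of the 13 members with a peak were (46.2%). Of 85 alternative values, 18 moved by more than 1.5 times the count or 1 SD of the score. Of the other 67, 35 were counts of 0 that stayed at 0 and 18 were mean scores without a replicate, which cannot move by 1 SD by construction, so neither bears on stability. Unknown read depth limits every absence reported here: a site missing from a list may still have been bound.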

Other observations

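Some peaks lay within 10000 bp of a member but carried another gene's name, and so entered no count above. A peak inside the span of Lgr5, the R-spondin receptor gene, was listed in ASC MyoD replicate 2 under the name A930009A15Rik (chromosome 10, 115580337 to 115580786, score 52.2). Another, near Fzd10, was listed in ASC MyoD replicate 1 under the name Fzd10os (chromosome 5, 128591664 to 128592553, score 54.2). Replicate 1 is the ASC MyoD library that had no peak under the name Fzd10 itself. The Fzd10os peak is a different site, as it lies before the start of Fzd10 and the region named Fzd10 lies past the gene's end. The peaks named A930009A15Rik and Fzd10os were each found in a single library with scores near the floor of the lists, and neither replicated.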
